A study of Mus musculus with 8 samples.

Results

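The hypoxia response and glycolysis genes described here are 36 genes of the 49315 identifiers in the expression table, taken from a list of names: 14 glycolytic enzymes, 2 transporters of glucose and lactate, 3 regulators of glycolytic flux, 3 regulators of the hypoxia-inducible factor (HIF) and 14 other HIF targets. All 36 were found by symbol, and all 36 passed the filter on low values. RNA sequencing of polyadenylated transcripts was run on 4 mouse pancreatic ductal adenocarcinoma (mPDAC) cell lines, named 6694c2, 2838c3, 6499c4 and 6419c5. For every line there is 1 library of C1galt1c1-knockout cells (KO, labelled Tn) and 1 library of wild-type cells (WT), so 4 KO and 4 WT libraries were compared. C1galt1c1, also called Cosmc, encodes the chaperone of the core 1 O-glycan synthase, so that its loss leaves the short Tn antigen on O-glycosylated proteins. KO and WT cells alike grew in high-glucose medium with serum, and the design text states matched confluence at harvest. The oxygen level, and whether a KO line is a clone or a pool, are not given in the sources used here. The design text speaks of 4 biological replicates per genotype, whereas the labels give 4 different lines, and so no difference inside a line can be checked against replicates.

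HIF is a transcription factor whose alpha subunits, such as Hif1a, are made continuously but marked for destruction while oxygen is plentiful. Prolyl hydroxylases of the Egln family place the mark, using oxygen as a substrate, and the Vhl ubiquitin ligase recognises it. When oxygen is short, the subunit accumulates and switches on genes of glycolysis, glucose uptake, vessel growth and collagen modification, together with Egln1 and Egln3. Pancreatic ductal tumours are known as poorly perfused and strongly glycolytic. HIF protein, oxygen and metabolites were not measured in these libraries.

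Levels are in TPM, which are shares of the transcripts in a library, scaled for gene length to the same total in every library. Differences are KO minus WT on the log2(TPM + 1) scale and, unless stated otherwise, relative to the median difference of all 12900 genes tested. For limma estimates over the 4 lines that median was -0.15. For differences within a line it was the line's own median, -0.23 in 6694c2, -0.08 in 2838c3, -0.11 in 6499c4 and -0.16 in 6419c5. The pseudocount of 1 understates differences of genes with low TPM. TPM keep no read depth, so the depth is unknown and no counting error is attached to a value. Wherever 4 values of a group are listed, they stand in the order 6694c2, 2838c3, 6499c4, 6419c5.

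The targeted gene C1galt1c1 stood at 29.5%, 38.0%, 35.0% and 42.4% of its WT level in the KO libraries. All 9 epithelial and ductal markers were detected, led by Krt8 with up to 8257 TPM. Under 1 TPM in all libraries were 5 of 5 endothelial, 5 of 6 immune, 4 of 6 fibroblast and 5 of 7 acinar and islet markers. The highest levels among the rest of these markers were 28.1 TPM for Cd68 and 5.62 TPM for Col1a1, both in KO 2838c3, and 44.4 TPM for Cela1 in WT 6694c2. The macrophage marker Cd68 had 8.31, 28.1, 18.5 and 7.63 TPM in KO, against 14.2, 8.93, 10.0 and 5.49 TPM in WT, and the fibroblast marker Col1a1 had 2.02, 5.62, 1.80 and 3.02 TPM in KO, against 3.80, 1.502, 2.80 and 3.22 TPM in WT. Of the epithelial markers, Epcam had 1.21, 25.1, 9.15 and 27.1 TPM in KO, against 3.12, 1.35, 12.0 and 44.9 TPM in WT. Cd68, Col1a1 and Epcam were thus higher in KO in 2838c3, the line whose KO library was highest for most of the 36 genes. Krt8 (4755 TPM in KO against 5578 TPM in WT) and Cdh1 (788 against 1249 TPM) were lower in KO there. The other epithelial markers were higher there. The epithelial sum in 2838c3 was 14555 TPM in KO and 14610 TPM in WT. The part of these markers in the differences of the 36 genes was not tested. Summed, the immune list ranged from 7.90 to 28.4 TPM in KO and 5.88 to 14.6 TPM in WT, the fibroblast list from 2.27 to 7.21 TPM in KO and 2.07 to 5.56 TPM in WT, and the epithelial list from 13379 to 24186 TPM in KO and 13813 to 20065 TPM in WT. Of the acinar and islet markers, 5 of 7 were listed at 0 in all libraries. Identifiers without a gene name held 12.5% and 9.69% of the TPM in the KO libraries of 6694c2 and 6419c5, and between 0.713% and 1.33% in the other 6 libraries. In bulk RNA, fewer cells with a transcript and less of that transcript per cell cannot be told apart.

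The first question was how the 36 genes differed between KO and WT in each line. Their median difference was negative in 6694c2 (-0.92) and in 6419c5 (-0.44), and positive in 2838c3 (1.68) and in 6499c4 (0.56). In 2838c3, 26 of 36 genes were at least 2-fold higher in KO, against 5.89% of all genes, and 0 of 36 were at least 2-fold lower, against 6.47%. In 6694c2 the counts ran the other way: 16 of 36 were at least 2-fold lower, against 3.17% of all genes, and 0 of 36 at least 2-fold higher, against 2.79%. The other lines held few differences of that size. In 6499c4, Adm and Ankrd37 were at least 2-fold higher, 2 of 36 against 1.12% of all genes, and 0 of 36 at least 2-fold lower, against 1.26%. In 6419c5, Slc16a3, Car9 and Ankrd37 were at least 2-fold lower, 3 of 36 against 1.44% of all genes, and 0 of 36 at least 2-fold higher, against 2.09%.

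Counted by sign over the 4 lines, 26 of 36 genes were lower in 6694c2 and 6419c5 and higher in 2838c3 and 6499c4, a combination shown by 10.3% of all genes. This combination is that of the line medians of the same 36 genes, so its count describes them and cannot test them. The same limit holds for its count in any part of the 36, and for counts over 2 of the lines. The 10 genes without this combination were Hif1a, Hk2, Pfkfb4, Vegfa, Ndrg1, Higd1a, Bhlhe40, Car9, P4ha1 and Kdm3a. The count was 25 of 36 with a pseudocount of 0.1, with median-ratio scaling, and with small RNA classes and identifiers without a gene name left out. This is because the difference of Slc2a1 lies near 0 in 2 lines and its sign turns there. Higher in both 2838c3 and 6499c4 were 33 of 36, against 27.5% of all genes. Lower in both 6694c2 and 6419c5, whose KO libraries hold the most RNA without a gene name, were 29 of 36, against 30.1%. In 14 of 36 genes the difference was at least 2-fold lower in 1 line and at least 2-fold higher in another, against 2.59% of all genes.

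**Figure D1:**
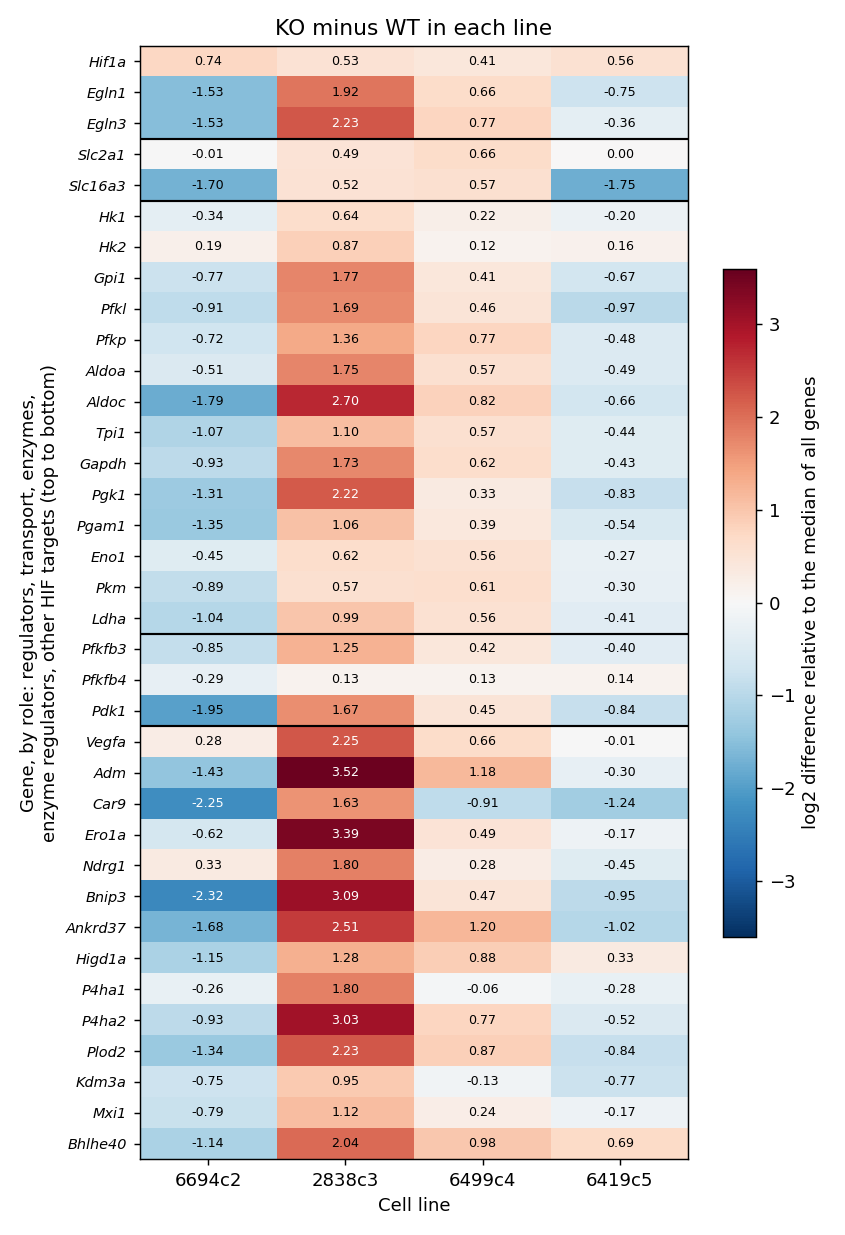
KO minus WT of the 36 genes (rows, by role) in the 4 lines (columns), as log2 differences relative to the median of all genes, red for higher and blue for lower in KO. Most rows are blue in 6694c2 and 6419c5 and red in 2838c3 and 6499c4, while Hif1a in the top row lies between 0.41 and 0.74 in all 4 columns.

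Over all lines together, limma with the line as a block gave 0 of 36 with a Benjamini-Hochberg adjusted p under 0.05, and 0% of all 12900 genes. At an unadjusted limma p under 0.05, 1 of 36 was higher in KO, Hif1a, against 0.86% of all genes, and 0 of 36 were lower, against 7.95%. These limma p-values test the difference before the median of all genes is taken off, and the split over all genes, 111 higher and 1026 lower, was 297 higher and 349 lower with median-ratio scaling. The count of 1 of 36 depended on the lines used. Without line 6694c2, 2 of 36 were higher, against 1.12% of all genes, and 0 of 36 lower, against 4.49%. Without line 2838c3, 1 of 36 was higher, against 1.31%, and 3 of 36 lower, against 11.5%. Without line 6419c5, 0 of 36 were higher, against 0.65%, and 0 of 36 lower, against 5.43%. The median estimate of the 36 genes was 0.21; it was -0.23 without line 2838c3 and 0.51 without line 6694c2. The SD of the KO difference over the 4 lines had a median of 1.07 for the 36 genes and 0.356 for all genes, and 33 of 36 lay above the median of all genes. In 0 of 36 genes did all 4 KO libraries lie above all 4 WT libraries, against 0.147% of all genes, and in 0 of 36 did all KO libraries lie below, against 1.34%.

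Levels were then compared between the lines with genotype held constant. By the limma F-test on the line terms, 0 of 36 genes passed a Benjamini-Hochberg adjusted p of 0.05, against 16.9% of all genes. The count was 5 of 36 without line 2838c3, against 29.1% of all genes, and 2 of 36 with median-ratio scaling, against 17%. It lay below the share of all genes in each of these fits. With 1 library per genotype and line, the F-test sets levels against the spread of the KO difference between lines. That spread was wider for the 36 genes, with a median SD of 1.07 against 0.356 for all genes. A low count therefore does not show that their levels were alike between lines. The KO library of 2838c3 was the highest of the 8 for 21 of 36 genes and the WT library of 6694c2 for 6. The lowest library was KO 6694c2 for 11 genes, WT 2838c3 for 11 and KO 6419c5 for 8. By these counts the order of the lines depended on the genotype: 2838c3 was at the top as KO and near the bottom as WT, and 6694c2 the other way round.

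Of the 3 regulators, Hif1a had the steadiest difference. Hif1a (ENSMUSG00000021109), the oxygen-regulated alpha subunit, had 116, 86.4, 56.2 and 84.2 TPM in KO, against 80.7, 62.9, 45.4 and 63.2 TPM in WT. KO was the higher library in 4 of 4 lines, with differences of 0.74, 0.53, 0.41 and 0.56, although the KO and WT ranges overlapped. The means were 85.6 ± 24.3 TPM in KO and 63.0 ± 14.4 TPM in WT (SD, n = 4 lines each). The limma estimate was 0.57, its SE 0.13 and its 95% interval 0.27 to 0.87, while the difference before the shift, 0.42, had an unadjusted p of 0.0130 and an adjusted p of 0.556 over all genes. Unadjusted limma p-values were 0.0504 without line 6694c2, 0.0570 without line 6419c5 and 0.139 without the line as a block. Relative to the median of all genes, Hif1a and Hk2 were higher in all 4 lines, 2 of 36, against 6.43% of all genes. On the same measure 0 of 36 were lower in all 4 lines, against 6.79%. In TPM, however, Hk2 was higher in KO in only 3 of 4 lines. Its KO level was 97.5%, 173%, 101% and 100% of WT.

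Both prolyl hydroxylase genes had the sign pattern of the majority. Egln1 (Phd2), the main oxygen sensor of the pathway, had 52.7, 298, 117 and 53.5 TPM in KO, against 181, 82.6, 79.9 and 101 TPM in WT. Egln3 (Phd3), a family member strongly induced by HIF, had 97.0, 266, 112 and 43.9 TPM in KO, against 329.9, 59.0, 70.1 and 63.2 TPM in WT. The 2 highest libraries of Egln1 were KO 2838c3 and WT 6694c2, and those of Egln3 were WT 6694c2 and KO 2838c3. The log2 ratio of Egln3 to Egln1 was higher in KO in 4 of 4 lines, by 0.21 ± 0.18 (SD, n = 4 lines). The smallest p of the exact two-sided sign-flip permutation test with 4 lines is 0.13 when rounded, so no pair could pass 0.05. This pair had that p, and 0.75 after Benjamini-Hochberg adjustment over the 6 isoenzyme pairs compared.

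**Figure D2:**
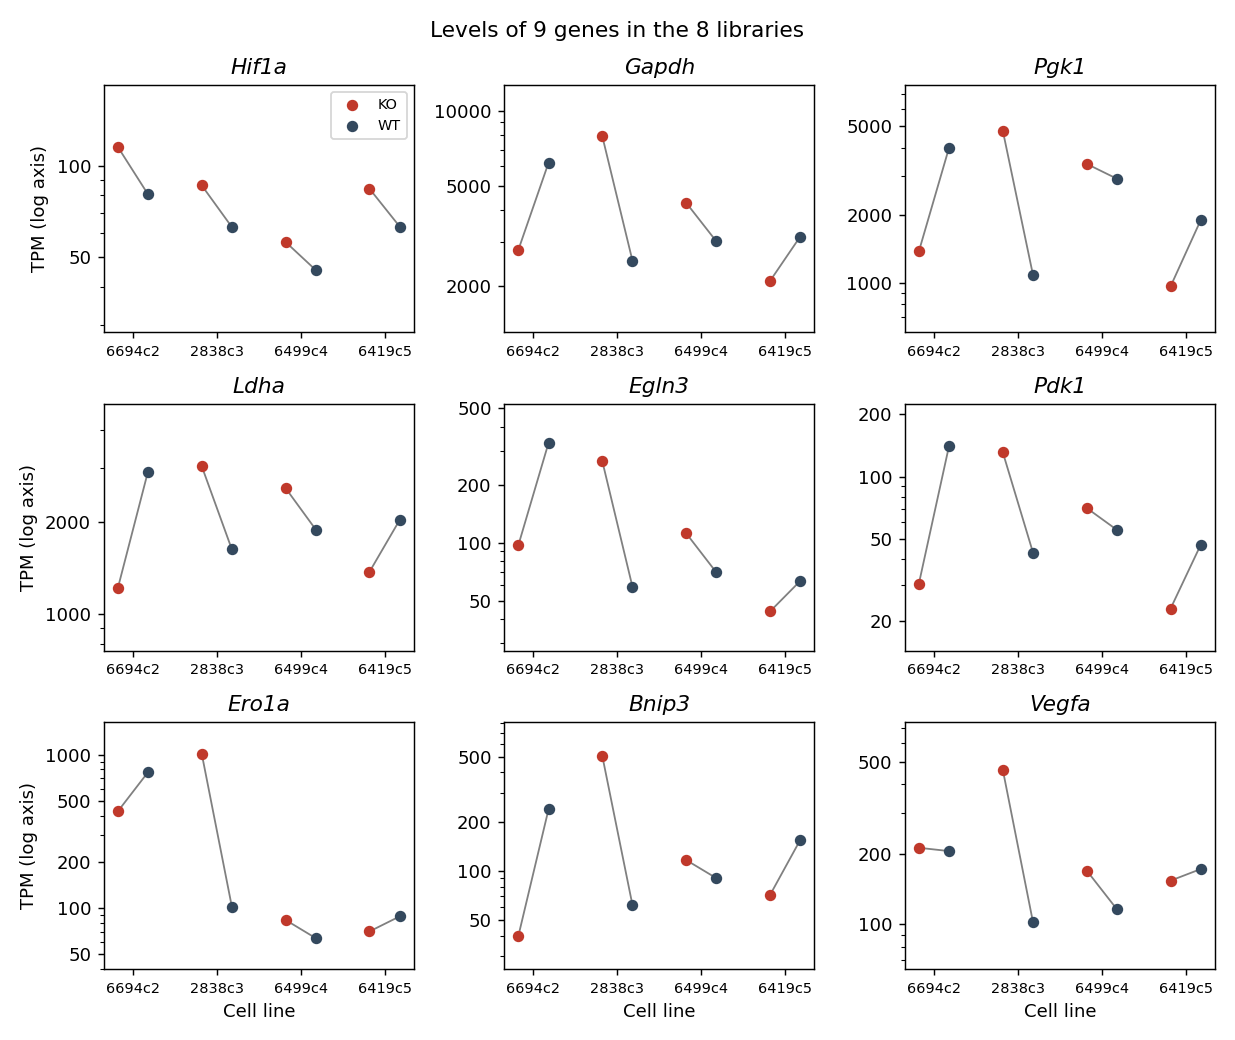
TPM on log axes of 9 genes in the 8 libraries, with the KO library (red) left of the WT library (dark) of each line and a grey line joining the pair. Hif1a is higher in KO in all 4 lines, whereas Gapdh, Pgk1, Ldha, Egln3, Pdk1, Ero1a and Bnip3 are lower in KO in 6694c2 and 6419c5 and higher in KO in 2838c3 and 6499c4.

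The 2 transporters differed in how far they moved between libraries. Slc2a1 (Glut1), the main glucose importer, had 215, 336, 266 and 170.5 TPM in KO, against 254, 253, 180.4 and 190.4 TPM in WT, with no difference of 2-fold in any line. Slc16a3 (Mct4), which exports lactate, had 14.8, 54.6, 163 and 10.3 TPM in KO, against 59.1, 40.0, 118 and 41.1 TPM in WT. The KO libraries of 6694c2 and 6419c5 were the 2 lowest of the 8, while 6499c4 was the highest line in both genotypes. Slc16a3 overlaps the exons of Csnk1d on the opposite strand, which had 95.6 to 159.9 TPM. The sources used here do not say whether reads were counted by strand, so the Slc16a3 level is uncertain.

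The 14 glycolytic enzymes together took 1.23%, 3.04%, 2.24% and 1.05% of all TPM in the KO libraries, against 2.71%, 1.29%, 1.67% and 1.62% in the WT libraries. The share was lower in KO in 6694c2 and 6419c5 and higher in KO in 2838c3 and 6499c4, with no replicate within a line. The median difference of the 14 enzymes was -0.90, 1.23, 0.56 and -0.46 in the 4 lines, and 13 of 14 had the sign pattern of the majority, against 10.3% of all genes. Hk2 was the exception. At least 2-fold higher in KO in 2838c3 were 9 of 14 enzymes, against 5.89% of all genes, and at least 2-fold lower in 6694c2 were 5 of 14, against 3.17%.

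**Figure D3:**
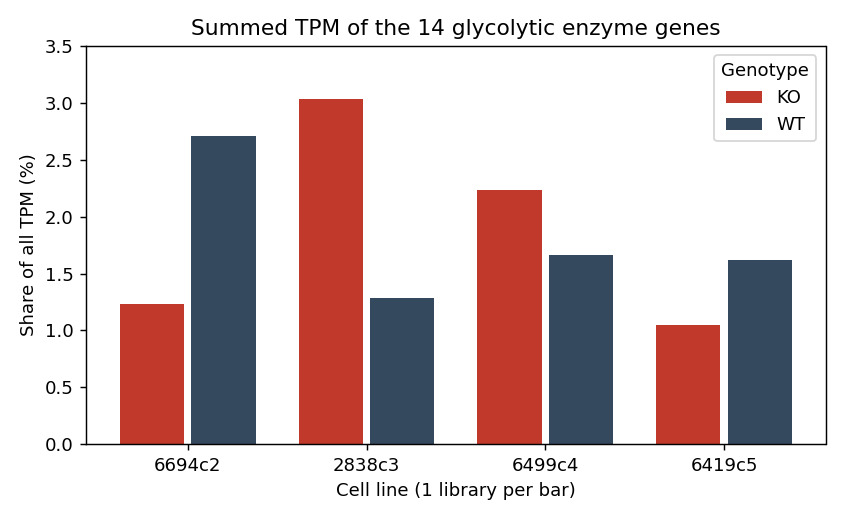
Summed TPM of the 14 glycolytic enzyme genes as a share of all TPM (%), with 1 bar per library and KO left of WT in each line. The bars reach 3.04% in KO 2838c3 and 2.71% in WT 6694c2, and the partner library is lower in both lines, 1.29% for WT 2838c3 and 1.23% for KO 6694c2.

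The enzymes of the upper pathway prepare glucose for splitting. Hk1 and Hk2, the hexokinases that trap glucose in the cell, stayed within 2-fold in every line: Hk1 had differences of -0.34, 0.64, 0.22 and -0.20, and Hk2 of 0.19, 0.87, 0.12 and 0.16. Gpi1, the isomerase that follows, had 353, 895, 619.9 and 369.9 TPM in KO, against 707, 276, 501 and 658 TPM in WT. Pfkl, the liver-type phosphofructokinase at the committed step, had 171, 551, 577 and 231 TPM in KO, against 379, 179, 452 and 506 TPM in WT. Gpi1 was lowest in WT 2838c3 and Pfkl in KO 6694c2, and KO and WT overlapped for both. Pfkp, the platelet-type phosphofructokinase, had 59.7, 19.9, 39.2 and 25.1 TPM in KO, against 116, 7.65, 24.3 and 39.5 TPM in WT. Its level was highest in 6694c2 and lowest in 2838c3 in both genotypes. Pfkp shares exon bases with Pitrm1 on the opposite strand, at 64.9 to 132.5 TPM, and its level is uncertain for the same reason as that of Slc16a3. Pfkl overlaps Cfap410 in the same way, at up to 8.58 TPM.

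Aldolase and triose phosphate isomerase make the 3-carbon sugars. Aldoa, the main aldolase here, had 1679, 3043, 1908 and 1148 TPM in KO, against 2792, 953, 1383 and 1794 TPM in WT. Aldoc, a minor aldolase, had 58.4, 310.3, 377 and 128 TPM in KO, against 239.9, 49.5, 229 and 226 TPM in WT. Aldoc ranged from 49.5 TPM in WT 2838c3 to 377 TPM in KO 6499c4. Tpi1, the isomerase, had 993, 2199, 1817 and 1057 TPM in KO, against 2437, 1088, 1314 and 1597 TPM in WT. Again KO 2838c3 and WT 6694c2 were among the highest libraries.

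The lower pathway recovers energy. Gapdh, which oxidises the 3-carbon sugar, had 2781, 7932, 4292 and 2089 TPM in KO, against 6199.8, 2521, 3009 and 3144 TPM in WT. It is often used as a constant reference gene, yet its differences here were -0.93, 1.73, 0.62 and -0.43. Pgk1, which makes the first ATP of the pathway, had 1382, 4794, 3403 and 964 TPM in KO, against 4022, 1085, 2921 and 1909 TPM in WT. Pgk1 had the widest line split of the enzymes after Aldoc, 2.22 in 2838c3 and -1.31 in 6694c2. Pgam1, the mutase, had 275, 1203, 733 and 348 TPM in KO, against 821, 611, 602 and 563 TPM in WT. Eno1, the enolase that follows, had differences of -0.45, 0.62, 0.56 and -0.27, under 2-fold in every line.

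Pkm, the pyruvate kinase of most cells, had 2167, 4353, 4902 and 1420.4 TPM in KO, against 4696, 3106, 3452 and 1950.1 TPM in WT. The 6499c4 KO library was highest, and 6419c5 was low in both genotypes. Ldha, which reduces pyruvate to lactate, had 1212, 3039, 2575 and 1372 TPM in KO, against 2918, 1623, 1885 and 2027 TPM in WT. The limma estimates over the lines were near 0, at 0.00 with an SE of 0.30 for Pkm and 0.03 with an SE of 0.36 for Ldha. For Gapdh the limma estimate was 0.25 with an SE of 0.44. Near-identical pseudogene transcripts may share reads with Gapdh, Eno1, Pgk1, Bnip3, Gpi1, Pgam1 and Pkm. Their summed TPM was at most 2.87% of the gene's own, which was the value for Gapdh and its 43 copies. How reads that match both a gene and a copy were counted is not given, so this share does not bound the reads affected.

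The 3 regulators of glycolytic flux differed among themselves. Pfkfb3, which makes the activator of phosphofructokinase, had 4.73, 28.2, 21.5 and 8.72 TPM in KO, against 11.1, 12.0, 17.1 and 13.3 TPM in WT. Pfkfb4, its relative, was low and nearly flat at 2.47 to 5.57 TPM, with differences of -0.29, 0.13, 0.13 and 0.14. Pdk1, the kinase that shuts pyruvate out of the mitochondrion, had 30.3, 131, 70.5 and 22.9 TPM in KO, against 141, 42.9, 55.2 and 46.8 TPM in WT. Pdk1 was highest in WT 6694c2 and KO 2838c3, and lowest in the KO libraries of 6419c5 and 6694c2.

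The 14 other HIF targets act in vessel growth, pH, stress, mitochondria, collagen and transcription. Their median difference was -1.04, 2.13, 0.58 and -0.37 in the 4 lines, and 13 of 14 were at least 2-fold higher in KO in 2838c3, against 5.89% of all genes. The full sign pattern of the majority was present in 7 of 14, against 10.3%, and 7 of 14 were at least 2-fold lower in 6694c2, against 3.17%. The sequences that follow are the 250 bases before the transcription start of the 4 genes with the largest difference in a line that hold the core of a hypoxia response element, the site bound by HIF. They were read from GRCm39 at the start of the Ensembl canonical transcript in GENCODE vM39: Adm at chr7:110226608-110226857 on the plus strand, Ero1a at chr14:45556037-45556286 on the minus strand, Bnip3 at chr7:138511254-138511503 on the minus strand and P4ha2 at chr11:53991500-53991749 on the plus strand. Each is written 5′ to 3′ along the gene's own strand, and capitals mark ACGTG or GCGTG read on either strand, so that CACGT and CACGC are the same letters on the other strand.
Adm: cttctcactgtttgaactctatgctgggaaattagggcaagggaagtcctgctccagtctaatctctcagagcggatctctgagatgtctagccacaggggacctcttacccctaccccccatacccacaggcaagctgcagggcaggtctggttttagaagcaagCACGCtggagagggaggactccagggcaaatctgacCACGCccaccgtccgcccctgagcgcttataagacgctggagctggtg
Ero1a: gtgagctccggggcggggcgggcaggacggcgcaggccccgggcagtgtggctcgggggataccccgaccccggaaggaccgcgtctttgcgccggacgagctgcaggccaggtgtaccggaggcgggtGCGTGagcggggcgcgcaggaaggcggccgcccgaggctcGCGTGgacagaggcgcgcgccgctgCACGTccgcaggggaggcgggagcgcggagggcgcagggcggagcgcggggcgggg
Bnip3: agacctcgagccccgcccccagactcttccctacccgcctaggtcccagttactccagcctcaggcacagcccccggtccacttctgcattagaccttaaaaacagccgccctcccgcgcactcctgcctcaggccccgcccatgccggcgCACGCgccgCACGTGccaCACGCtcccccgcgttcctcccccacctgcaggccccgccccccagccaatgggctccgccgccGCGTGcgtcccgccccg
P4ha2: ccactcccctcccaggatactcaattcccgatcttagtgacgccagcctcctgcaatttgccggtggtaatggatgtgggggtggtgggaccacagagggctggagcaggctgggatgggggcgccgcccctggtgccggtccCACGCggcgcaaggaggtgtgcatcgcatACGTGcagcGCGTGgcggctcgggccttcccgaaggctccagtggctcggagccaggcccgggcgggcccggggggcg

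On either strand, the 250 bases held ACGTG or GCGTG in 24 of 36 genes (66.7%), against 6176 of 11380 protein-coding genes tested (54.3%). ACGTG alone was present in 16 of 36 (44.4%), against 21.7%, and GCGTG in 16 of 36 (44.4%), against 42.6%. CACGTG, which contains ACGTG on both strands, was in 6 of 36 (16.7%), against 7.95%, and 1 copy of it lies in the Bnip3 window. A match describes these letters only. No binding was measured here.

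Of the signalling and stress targets, Adm (adrenomedullin, a vasodilator peptide) had 0.546, 15.3, 2.86 and 1.92 TPM in KO, against 3.89, 0.499, 0.832 and 2.99 TPM in WT. Adm had the largest difference of the 36 genes in 2838c3, at 3.52, but its TPM were low in most libraries. Vegfa, the vessel growth factor, had 213, 463, 170.1 and 154 TPM in KO, against 206, 102, 116 and 173 TPM in WT. Vegfa stood at 463 TPM in KO 2838c3 and between 102 and 213 TPM in the other 7 libraries. Its limma estimate was 0.80 with an SE of 0.37 and an unadjusted limma p of 0.126. Ero1a, the oxidase of disulfide formation in the endoplasmic reticulum, had 426, 1016, 83.3 and 70.1 TPM in KO, against 768, 101, 63.3 and 87.9 TPM in WT, and its 2 highest libraries were KO 2838c3 and WT 6694c2. Ndrg1, a stress-induced gene, had 305, 283, 148 and 178 TPM in KO, against 284, 85.6, 131 and 272 TPM in WT, with the 2838c3 WT library standing lowest.

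Car9, the membrane carbonic anhydrase that keeps cytosolic pH up, had 6.80, 4.996, 11.7 and 4.82 TPM in KO, against 42.5, 1.05, 24.7 and 14.3 TPM in WT. KO was lower in 3 of 4 lines, with differences of -2.25, 1.63, -0.91 and -1.24, and higher in 2838c3. Without line 2838c3 its limma estimate was -1.46 with an unadjusted p of 0.00111, the smallest p among the lines left out in turn. Leaving out the only line in which KO was higher fixed the direction, so this p supports nothing. No gene passed the adjusted threshold with any line left out. Bnip3, a receptor for removal of mitochondria, had 39.9, 507, 117 and 71.2 TPM in KO, against 238, 61.9, 90.3 and 155 TPM in WT. Bnip3 had the widest gap between lines of the 36, from -2.32 in 6694c2 to 3.09 in 2838c3. Ankrd37, a small HIF-induced gene, had 8.74, 193, 45.3 and 15.9 TPM in KO, against 35.5, 35.1, 20.6 and 37.1 TPM in WT. Higd1a, which acts in the mitochondrial respiratory chain, had 35.6, 109, 53.7 and 35.3 TPM in KO, against 94.0, 46.9, 30.9 and 31.1 TPM in WT. In both genes the 2838c3 KO library was highest.

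The collagen-modifying targets were P4ha1, P4ha2 and Plod2, which hydroxylate proline or lysine in procollagen. P4ha1 had 70.3, 227, 80.9 and 83.2 TPM in KO, against 99.3, 68.3, 91.0 and 113 TPM in WT. P4ha2 had 27.2, 106, 49.8 and 19.0 TPM in KO, against 61.9, 12.8, 31.1 and 30.8 TPM in WT. Plod2 had 9.96, 27.3, 14.7 and 5.19 TPM in KO, against 31.4, 5.38, 8.28 and 11.3 TPM in WT. KO 2838c3 was the highest library for P4ha1 and P4ha2, and for Plod2 it came after WT 6694c2. Their partners in the endoplasmic reticulum (P4hb, P4ha3, Plod1, Plod3, P3h1, P3h4, Crtap and Serpinh1) had the sign pattern in 1 of 8, against 10.3% of all genes. Their medians were -0.08, 0.07, 0.20 and -0.08. Of these, P4ha3 had the smallest unadjusted limma p, 0.0192, with an estimate of -0.40, and 2 of 8 were lower at an unadjusted limma p under 0.05, where 7.95% of all genes were.

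The remaining 3 targets act on transcription. Kdm3a, a histone demethylase that itself needs oxygen, had differences of -0.75, 0.95, -0.13 and -0.77. Mxi1, an antagonist of Myc, had 27.6, 76.4, 59.2 and 33.0 TPM in KO, against 56.8, 36.7, 54.0 and 41.4 TPM in WT. Bhlhe40, a transcriptional repressor in the circadian clock, had 97.9, 431, 105 and 137 TPM in KO, against 255, 110.0, 56.4 and 94.1 TPM in WT. Bhlhe40 was higher in KO in 3 of 4 lines, with 431 TPM in KO 2838c3 standing above all other libraries.

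The 6 isoenzyme pairs test a shift between relatives within a library. Apart from Egln3 to Egln1, the mean log2 ratio differed by 0.26 ± 0.27 for Hk2 to Hk1, 0.19 ± 0.31 for Pfkp to Pfkl and 0.31 ± 0.93 for P4ha2 to P4ha1 (SD, n = 4 lines). It differed by -0.06 ± 0.95 for Aldoc to Aldoa and -0.08 ± 0.83 for Pfkfb4 to Pfkfb3. The exact sign-flip permutation p-values of these pairs were 0.25, 0.375, 0.625, 0.875 and 0.875, and 0.75 or 0.875 after Benjamini-Hochberg adjustment over the 6 pairs.

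Other genes of the same pathways were read from lists, to see how far the pattern of signs went. These lists were chosen with earlier results of these data known, and the pattern is that of the 36 genes in the same libraries. Counts of the pattern in the lists are therefore no independent check of it. Of 23 further HIF targets not among the 36, 18 passed the filter, with medians of -0.80, 1.52, 0.51 and -0.34. Of these 18, 10 (55.6%) had the sign pattern, against 10.3% of all genes. Pgf, a placental growth factor related to Vegfa, had the smallest limma p of that list, 0.101 unadjusted. Pgf had 4.59, 53.9, 6.98 and 8.19 TPM in KO, against 10.4, 2.40, 2.05 and 3.65 TPM in WT, and in 2838c3 the KO library stood highest of all. The HIF pathway components, 13 of 15 tested, had medians of 0.02, 0.00, 0.05 and -0.11. The pattern was present in 3 of 13, against 10.3% of all genes. Siah2, a ubiquitin ligase that acts on Egln proteins, had the smallest p there, 0.0626 unadjusted by limma, with 29.8, 24.3, 13.8 and 21.5 TPM in KO, against 19.1, 25.8, 11.2 and 10.3 TPM in WT. The medians of these components lay nearer to 0 in each line than those of the targets.

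Other glycolysis genes, chiefly tissue-specific isoforms, had 1 of 14 with the pattern, against 10.3% of all genes, and medians of -0.04, -0.14, 0.11 and 0.24. Of these Pfkfb2, a relative of Pfkfb3, had the smallest unadjusted limma p, 0.0533, with an estimate of -0.29. Genes of pyruvate entry into mitochondria had 1 of 13 with the pattern, against 10.3% of all genes, and medians of 0.00, 0.09, -0.09 and 0.08. Pdp1, the phosphatase that opposes Pdk1, had an estimate of -0.21 and an unadjusted limma p of 0.0662. The pentose phosphate pathway, which branches off before Pfkl, had 0 of 7 with the pattern, against 10.3%, and medians of 0.06, -0.67, 0.18 and 0.23. G6pdx, its first enzyme, had 62.7, 47.3, 135 and 79.0 TPM in KO, against 70.5, 131, 139 and 81.7 TPM in WT, lower in KO 2838c3 and nearly level elsewhere, with an unadjusted limma p of 0.145.

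**Figure D4:**
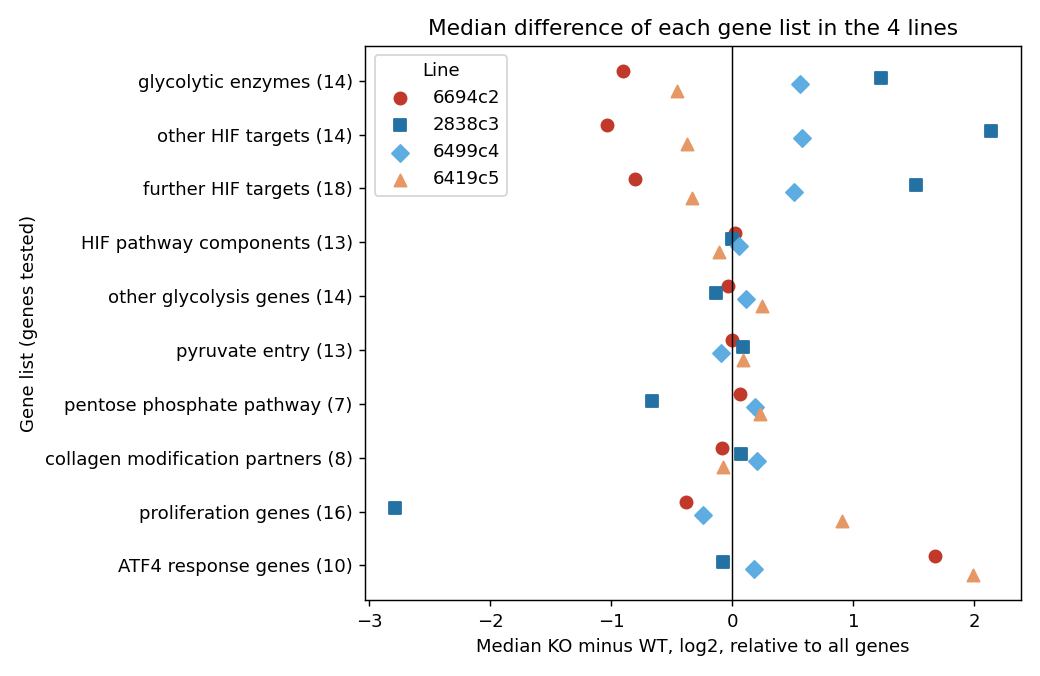
Median KO minus WT of each gene list (rows, with genes tested in brackets) in the 4 lines (symbols), on the log2 scale relative to all genes. Glycolytic enzymes, other HIF targets and further HIF targets lie on opposite sides of 0 in 6694c2 and 6419c5 against 2838c3 and 6499c4, while the proliferation list lies at -2.78 in 2838c3 and the ATF4 list at 1.67 and 1.99 in 6694c2 and 6419c5.

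The medians of 2 other gene lists lay far from 0 in some of the same lines, with no test of a whole list, and their part in the differences of the 36 genes was not tested. The 16 proliferation genes, which mark cycling cells, had medians of -0.38, -2.78, -0.24 and 0.91, so that KO 2838c3 was low in them. Mki67, a marker of cycling cells, had 37.3, 7.11, 17.1 and 25.1 TPM in KO, against 58.1, 80.4, 26.9 and 14.5 TPM in WT. Ccne2, a G1/S cyclin with the smallest unadjusted limma p of that list, 0.0163, had 3.32, 3.27, 2.15 and 2.08 TPM in KO, against 8.08, 16.4, 5.55 and 1.98 TPM in WT. By limma 2 of 16 were lower at an unadjusted p under 0.05, where 7.95% of all genes were, and 0 of 16 passed the adjusted threshold. The 10 ATF4 response genes, induced by amino acid or endoplasmic reticulum stress, had medians of 1.67, -0.08, 0.18 and 1.99. Ddit3, a stress transcription factor, had 154, 43.2, 26.9 and 98.5 TPM in KO, against 31.7, 14.7, 22.7 and 25.8 TPM in WT and an unadjusted limma p of 0.00263. By limma 5 of 10 were higher at an unadjusted p under 0.05, where 0.86% of all genes were, and 0 of 10 passed the adjusted threshold. That share of all genes was 2.3% with median-ratio scaling. The proliferation and ATF4 lists were chosen with earlier results of these data known, so their counts are no test of either list. The KO libraries of 6694c2 and 6419c5 hold at once higher ATF4 response genes, more RNA without a gene name and lower glycolysis genes, and with 1 library per line and genotype these cannot be told apart.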

How the data were processed

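Polyadenylated RNA was captured on oligo(dT) beads and sequenced as paired ends, per the labels' protocols. The deposited values are TPM in 1 table of 49315 gene identifiers and 8 libraries, and all libraries share 1 total, so depth is not kept. The submitters' processing notes name STAR 2.7.11b, cutadapt 5.1, DESeq2 2.11.40.8 and featureCounts 2.1.1, and mm39 as the genome. The way the TPM were made, with the gene lengths, annotation and strand setting, was not given in the sources used here. The design text calls the libraries stranded.

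Symbols came from the GENCODE vM39 annotation of GRCm39 (mm39 is another name of this assembly), which left 3810 identifiers without a name. The 36 genes and all context lists were chosen with earlier results of these data known. The 12900 genes that reached a TPM of 1 in 4 or more libraries were fitted as log2(TPM + 1) with limma 3.58.1 in R 4.3.3, with a variance trend, genotype as the tested term and the cell line as a block. P-values were adjusted by Benjamini-Hochberg over all 12900 genes with a threshold of 0.05, and the fit was tested on simulated data. KO and WT libraries of a line pair because they come from the same line, and the deviations of the 2 libraries from their group means correlated, at r = 0.66 in 6694c2, 0.42 in 2838c3, 0.79 in 6499c4 and 0.75 in 6419c5. Nothing in the labels says that cultures of a line were repeated, so p-values measure the spread between the 4 lines. Differences within a line were not tested.

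Values in every library are given for the 28 genes with a difference of at least 2-fold in at least 1 line, and for Hif1a, Gapdh, Ldha and Pkm. Slc2a1, Siah2, Pgf, G6pdx, Mki67, Ccne2 and Ddit3 are given in the same way, Slc2a1 and Mki67 chosen after their values were seen. So are Cd68, Col1a1 and Epcam, which the plan for named genes did not include. Of each context list the gene of smallest unadjusted p is named. Promoters are printed for the 4 genes with the largest difference in a line that hold ACGTG or GCGTG. Near copies were found by aligning transcripts with minimap2 2.31-r1302, at 300 or more aligned bases and 90% identity. Python 3.11.15, numpy 2.4.6, pandas 2.3.3 and matplotlib 3.10.9 made tables and figures. Alternatives were another pseudocount, other filters, other scalings, other variance settings, the fit without the line block, and leaving out each line in turn. Leaving out lines 6694c2 and 6419c5 together was chosen after seeing the data.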

Additional observations from a re-analysis of the deposited data

Results flagged for a closer look

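Groups of 4 libraries were searched for a library far from the other 3. With independent, normally distributed values the rule flags about 1 in 20 groups. The genes share their libraries and the rule was not applied to all genes, so this rate is no baseline for the count. Of 74 groups, 10 held such a library. In KO 2838c3 these were Adm at 15.3 TPM, Bnip3 at 507 TPM, P4ha1 at 227 TPM and Bhlhe40 at 431 TPM, each above the other KO libraries. In WT 6694c2 they were Egln3 at 329.9 TPM, Gapdh at 6199.8 TPM, Pdk1 at 141 TPM and Ero1a at 768 TPM, each above the other WT libraries. Below the other WT libraries stood Aldoc in WT 2838c3 at 49.5 TPM and Ankrd37 in WT 6499c4 at 20.6 TPM.

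In 14 genes the difference was at least 2-fold higher in KO in 2838c3 and at least 2-fold lower in KO in 6694c2. The gap between the 2 lines, 2838c3 less 6694c2 on the log2 scale, was 5.41 for Bnip3, 4.95 for Adm, 4.50 for Aldoc, 4.19 for Ankrd37 and 3.88 for Car9. It was 3.76 for Egln3, 3.63 for Pdk1, 3.57 for Plod2, 3.54 for Pgk1 and 3.45 for Egln1. For Bhlhe40 it was 3.18, for Higd1a 2.43, for Pgam1 2.41 and for Tpi1 2.16. With 1 library per line and genotype this difference between lines was not tested.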

How the results depend on the processing

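Without 6694c2, 2838c3, 6499c4 or 6419c5, 3, 23, 9 and 4 of 36 genes changed sign, and the median estimate of the 36 ranged from -0.23 to 0.51. The ranges over these fits were Egln1 -0.53 to 0.62, Egln3 -0.36 to 0.89, Hk1 -0.10 to 0.23, Gpi1 -0.33 to 0.52, Pfkl -0.47 to 0.41, Pfkp -0.13 to 0.56, Aldoa -0.13 to 0.62, Aldoc -0.53 to 0.97 and Tpi1 -0.30 to 0.42. They were Gapdh -0.24 to 0.65, Pgk1 -0.60 to 0.58, Pgam1 -0.49 to 0.31, Eno1 -0.0451 to 0.31, Pkm -0.21 to 0.30, Ldha -0.29 to 0.39, Pfkfb3 -0.27 to 0.43, Pfkfb4 -0.0098 to 0.15, Pdk1 -0.77 to 0.44 and Adm -0.17 to 1.48. They were Ero1a -0.0874 to 1.25, Bnip3 -0.92 to 0.88, Ankrd37 -0.49 to 0.91, P4ha1 -0.19 to 0.50, P4ha2 -0.22 to 1.11, Plod2 -0.43 to 0.76, Kdm3a -0.54 to 0.0264 and Mxi1 -0.23 to 0.41. Isoenzyme ratios that changed sign ranged over Aldoc over Aldoa -0.41 to 0.35, Pfkfb4 over Pfkfb3 -0.30 to 0.28 and P4ha2 over P4ha1 -0.0318 to 0.64. With a line left out, 0 to 4 of 36 genes passed an unadjusted p of 0.05, 0 of all genes passed the adjusted threshold, and 745 to 3785 genes and 0 to 5 of the 36 differed between lines. Without the filter on low values the estimate was -0.0222 for Egln1, -0.015 for Hk1, -0.0301 for Pfkl, -0.0549 for Tpi1, -0.098 for Pkm, -0.0718 for Ldha, -0.0677 for Pfkfb4 and -0.0225 for Bnip3. With quantile normalization it was -0.0572 for Tpi1, -0.15 for Pkm and -0.14 for Ldha. Of the 36, 2 differed between lines with median-ratio scaling, with quantile normalization, and with small RNA classes and identifiers without a gene name left out. With no replicate block, 0 of 36 passed an unadjusted p of 0.05. Without lines 6694c2 and 6419c5, chosen after seeing the data, 19 of 36 did, all of them higher in KO, against 2.75% of all genes. The 2 lines left out are those in which most of the 36 were lower in KO, so this choice fixed the direction and the count supports nothing. In that fit 3 of 36 and 1077 of all genes differed between lines, and the estimate was 0.55 for Slc16a3, 0.73 for Pgam1, 1.07 for Pdk1, 0.37 for Car9, 0.42 for Kdm3a and 0.61 for the Aldoc to Aldoa ratio. Fits that leave out lines hold fewer libraries. For the other settings the cause was not tested. The pairing by line is described with the processing, and no other call on the 36 genes changed without the block. TPM hold no depth, so counting error cannot be given.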
